A study of Homo sapiens with 12 samples.

Results

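The genes described here encode 10 secreted signals for which Hodgkin lymphoma cells are known: the chemokines CCL17, CCL22, CCL5, CXCL8 and CXCL10 and the cytokines IL5, IL6, IL9, IL13 and CSF2. Their probes were found by gene symbol in the annotation of the array platform. A named probe was found for 8 of the 10 genes, 11 probes in all of the 48803 on the array. No probe of IL9 or CSF2 was listed, and these genes were not analysed here. After a filter on dim probes, 9 of the 11 probes and 7 of the 10 genes could be tested, out of 13652 tested genes in the series.

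The RNA came from the Hodgkin lymphoma line HDLM-2, an established cell line of human origin, and was measured after 24 h of treatment on 12 Illumina arrays in 4 groups of 3. The combination group received 5 µM sorafenib together with 10 µM perifosine, the sorafenib group 5 µM sorafenib alone, the perifosine group 10 µM perifosine alone, and the control group neither drug. Sorafenib inhibits RAF kinases and several receptor tyrosine kinases, and perifosine is an alkylphospholipid that inhibits AKT. All groups shared 1 cell line grown without other cells, and the labels do not state whether the 3 samples of a group were cultured separately. The p-values therefore cover the sample-to-sample spread only, and that spread could be technical.

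Chemokines are small secreted proteins that direct the migration of leukocytes through G protein-coupled receptors. In Hodgkin lymphoma the malignant cells are few and lie in an infiltrate of T cells, eosinophils and other leukocytes, and CCL17, which binds CCR4 on T helper 2 and regulatory T cells, is a well-known product of the malignant cells. The type 2 cytokines IL5, IL9 and IL13 act on eosinophils, mast cells and, in the case of IL13, on the Hodgkin cells themselves. Genes of this class are commonly controlled by NF-kB, AP-1 and STAT factors, and CXCL10 is also a classical interferon target.

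The median deposited signal was 216.4 to 216.6 on the 12 arrays, and the threshold for signal above background, the upper 5% point of a normal distribution fitted to the dim probes, was 224.1 to 224.9. Between 21992 and 22188 probes lay above it on an array. Since sorted intensities were nearly the same on all arrays as deposited, these figures had to be alike and do not measure array quality. Precision was limited by the number of arrays. Across genes, log2 signals of arrays of 1 group correlated at 0.988 to 0.994. The deviations from the group means were most alike in perifosine replicate B and sorafenib replicate C, with a correlation of 0.387 across genes, and calls in the comparisons below that end when both arrays are left out are named as such. Of 13 markers of Hodgkin cell lines, such as TNFRSF8 (CD30), IRF4 and FSCN1, 12 were above background on all 12 arrays.

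CCL17, the CCR4 ligand, was above background on all 12 arrays and rose with sorafenib. Its signal was 40017, 33298 and 35414.5 in the 3 combination samples, 33613, 34618 and 38278 with sorafenib, 20520.4, 25216 and 23188 with perifosine, and 24699, 30145 and 25123 in control samples. The 6 samples with sorafenib, alone or in combination, lay above all 6 samples without it, while the perifosine and control samples overlapped. On the log2 scale after background correction, the 6 arrays with sorafenib minus the 6 without gave 0.54 ± 0.09 (SE), a 1.45-fold increase (limma, adjusted p = 0.0047). The call held when each of the 12 arrays was left out, at log2 changes of 0.50 to 0.59.

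The comparison of 6 arrays with sorafenib against 6 without uses the whole design and was passed by 3 of the 7 tested genes, CCL17 (higher), CXCL10 and CXCL8 (lower). Over all 13652 tested genes, 3.63% passed it, 2.48% higher and 1.15% lower. The arrays did not overlap for the same 3 genes, against 2.57% of all genes with all 6 arrays higher and 1.38% with all 6 lower. The median log2 change of the 7 genes was 0.04, beside -0.003 over all genes, with 5 of the 7 above 0.

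CCL22 is the other ligand of CCR4, and its gene lies close to that of CCL17. Its signal was 878, 805 and 651.5 in combination samples, 651, 907 and 837 with sorafenib, 668.5, 525 and 751 with perifosine, and 549, 595 and 484.5 in control samples. Every sample with sorafenib lay above the 3 control samples, but the perifosine samples spread across both ranges. The log2 change with sorafenib was 0.50 ± 0.14 (95% interval 0.20 to 0.80) and missed the threshold (limma, adjusted p = 0.0679). It passed in 5 of 22 alternatives, among them no background correction (adjusted p = 0.0239), an intensity trend in the variance (0.0241) and sorafenib replicate A left out (0.0464). With perifosine replicate B and sorafenib replicate C both left out, the log2 change was 0.38 and the adjusted p 0.16.

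**Figure D1:**
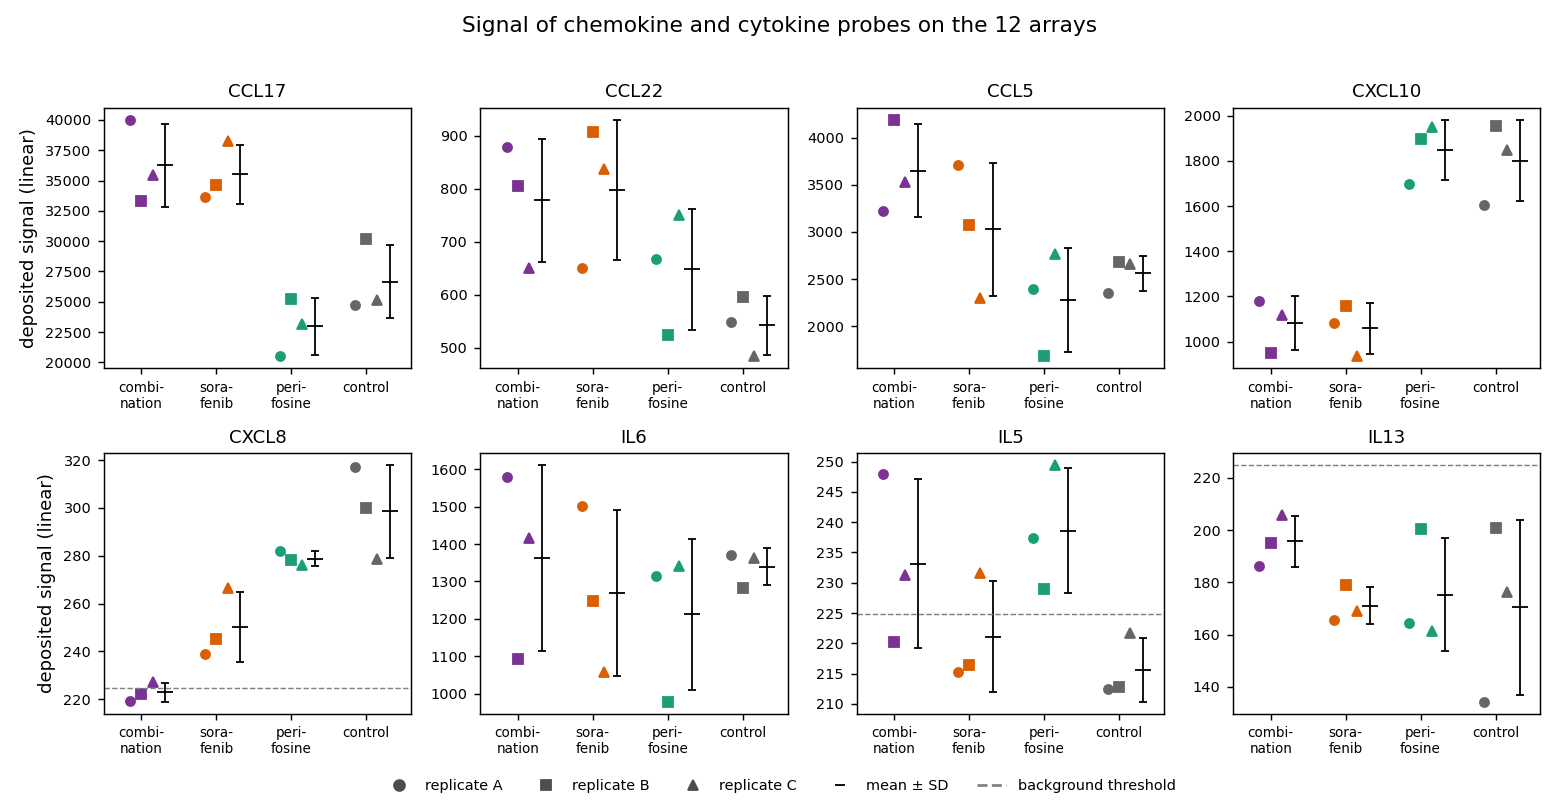
Deposited linear signal (y axis, a separate range in each panel that does not start at 0) of 8 genes on the 12 arrays, by group, with symbols for replicates A, B and C, the mean ± SD of 3 samples beside them and the background threshold as a dashed line. CCL17 lay between 33298 and 40017 in all 6 samples with sorafenib and between 20520.4 and 30145 in the 6 without, CXCL10 and CXCL8 had the opposite order, and all 12 IL13 values lay below the threshold.

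CCL5 (RANTES), a chemokine that draws T cells, eosinophils and monocytes, has 2 probes, which did not move alike. The brighter probe gave 3225.5, 4191 and 3527 in combination samples, 3711, 3075 and 2302 with sorafenib, 2397, 1683 and 2770 with perifosine, and 2352, 2677 and 2659 in control samples. The combination samples lay above all perifosine and control samples, and the lowest sorafenib sample, replicate C, lay below all 3 control samples. The second probe gave 1948, 1922 and 1801 in combination samples, 2352, 1929 and 2472 with sorafenib, 1437, 1786 and 1650.5 with perifosine, and 1225, 1363 and 1449.9 in control samples. On this probe all 6 samples with sorafenib lay above the 6 without.

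The log2 change of CCL5 with sorafenib was 0.48 ± 0.15 by the brighter probe (limma, adjusted p = 0.0939) and 0.52 ± 0.10 by the second (adjusted p = 0.0152 over 25399 probes, of which 1.91% passed). The second probe lost the call without control replicate A (adjusted p = 0.05) and kept it without each of the other 11 arrays. By the brighter probe the change passed in 6 of 22 alternatives, among them sorafenib replicate C left out (adjusted p = 0.0401) and this array and perifosine replicate B both left out (0.0378). Against control samples, sorafenib alone gave 0.79 ± 0.14 on the second probe (adjusted p = 0.0264, 0.449% of probes passing) and 0.23 ± 0.20 on the brighter one (adjusted p = 0.658). The log2 signals of the 2 probes correlated at 0.32 over the 12 arrays.

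CXCL10 (IP-10), an interferon-induced ligand of CXCR3 that draws T helper 1 and NK cells, showed the largest change among the tested members. Its signal was 1181.5, 951 and 1116 in combination samples, 1081, 1158 and 935 with sorafenib, 1696, 1899 and 1951 with perifosine, and 1603, 1953 and 1848 in control samples. All 6 samples with sorafenib lay below all 6 without, and the 2 groups on each side overlapped. CXCL10 fell by 0.85 ± 0.10 on the log2 scale with sorafenib, 1.80-fold (limma, adjusted p = 0.000349), and the call held without each of the 12 arrays. The fall was -0.84 ± 0.13 for sorafenib alone against control (adjusted p = 0.0117) and -0.81 ± 0.13 for the combination against control (adjusted p = 0.0136), comparisons that share the control samples.

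These comparisons with control rested on few samples. Sorafenib against control lost the CXCL10 call without control replicate B (adjusted p = 0.0601) or C (0.0577), and the combination against control lost it without control replicate B (0.0803) or C (0.0703) or combination replicate B (0.0717) or C (0.0618). The log2 change itself stayed between -0.89 and -0.70 in the combination when single arrays were left out.

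CXCL8 (interleukin-8), which draws neutrophils through CXCR1 and CXCR2, was near the background threshold and fell with sorafenib. Its brighter probe gave 219, 222 and 227 in combination samples, 239, 245 and 266.5 with sorafenib, 282, 278 and 276 with perifosine, and 317, 300 and 278.5 in control samples. The combination samples lay below the sorafenib samples, and these lay below all perifosine and control samples. Only 1 of the 3 combination samples was above background, against 3 of 3 in each other group. The log2 change with sorafenib was -0.54 ± 0.08 (limma, adjusted p = 0.00255), and that of the combination against control was -0.79 ± 0.11 (adjusted p = 0.00541). Both calls held without each of the 12 arrays, but without background correction the sizes were -0.29 (adjusted p = 0.00836) and -0.42 (0.0174).

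The second CXCL8 probe was dimmer, with 204, 230.1 and 209.9 in combination samples, 229.7, 187 and 204 with sorafenib, 221, 244 and 233 with perifosine, and 260.2, 220.5 and 255 in control samples. These groups overlapped, and 6 of the 12 values were above background. Its log2 change with sorafenib was -0.40 ± 0.13 (limma, adjusted p = 0.16 over 25399 probes), in the direction of the brighter probe, and its log2 signals correlated with that probe at 0.514 over the 12 arrays.

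**Figure D2:**
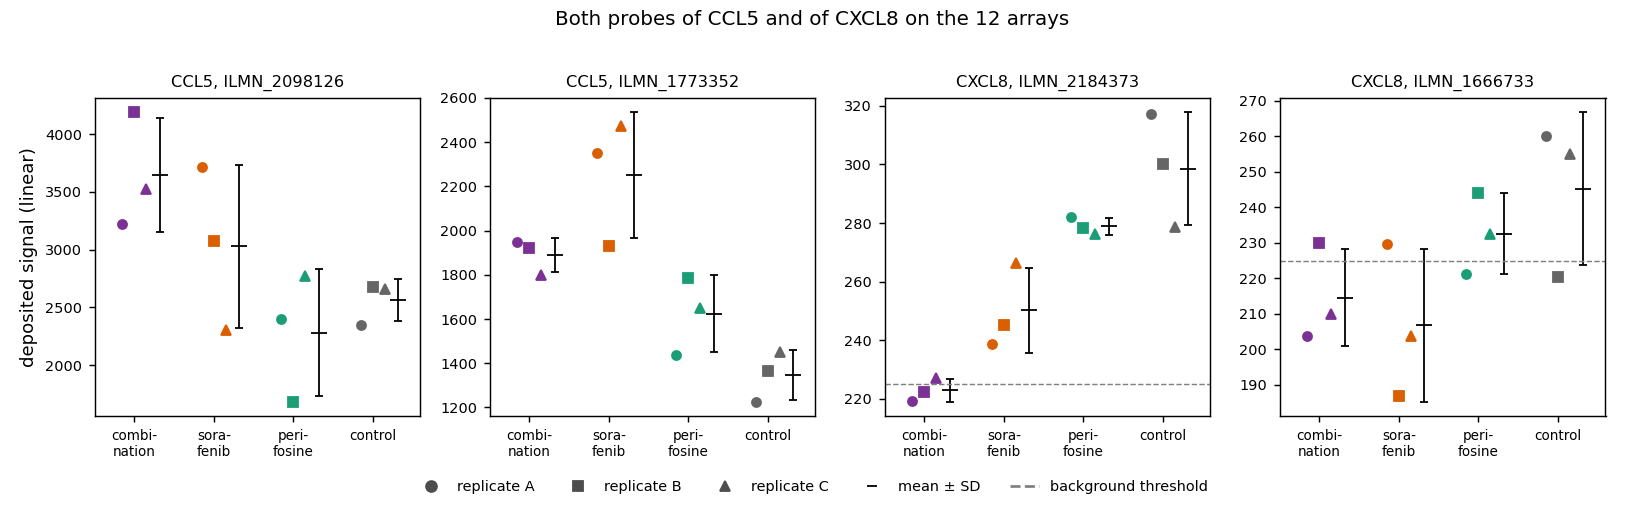
Deposited linear signal (y axes that do not start at 0) of both probes of CCL5 and both probes of CXCL8 on the 12 arrays, with the mean ± SD of 3 samples and the background threshold as a dashed line. The second CCL5 probe separates the 6 samples with sorafenib (1801 to 2472) from the 6 without (1225 to 1786), while on the brighter one sorafenib replicate C (2302) lies among the samples without sorafenib.

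The promoters of CXCL10 and CXCL8, the members that fell, are shown with that of IL6, a member of the same inflammatory class that did not pass any test. They were taken from RefSeq (GRCh38.p14), run from 250 bases before to 50 bases after the gene start and read 5′ to 3′ on the gene's strand. Promoters of 7 of the 10 genes were matched, in 8 windows since IL13 had 2, and CCL17, CCL5 and IL5 had no entry. Capitals mark matches to GGNNNTTCC (NF-kB), TGANTCA (AP-1) or GAAANNGAAA (interferon-stimulated response element, ISRE), searched on both strands.
CXCL10 promoter, chr4:76023448-76023747, minus strand: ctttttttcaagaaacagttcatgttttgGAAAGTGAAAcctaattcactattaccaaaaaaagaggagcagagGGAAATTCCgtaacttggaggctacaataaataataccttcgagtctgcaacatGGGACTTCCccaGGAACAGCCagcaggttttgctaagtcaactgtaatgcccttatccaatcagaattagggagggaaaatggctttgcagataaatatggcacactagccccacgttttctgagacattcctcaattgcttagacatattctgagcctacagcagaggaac
CXCL8 promoter, chr4:73740319-73740618, plus strand: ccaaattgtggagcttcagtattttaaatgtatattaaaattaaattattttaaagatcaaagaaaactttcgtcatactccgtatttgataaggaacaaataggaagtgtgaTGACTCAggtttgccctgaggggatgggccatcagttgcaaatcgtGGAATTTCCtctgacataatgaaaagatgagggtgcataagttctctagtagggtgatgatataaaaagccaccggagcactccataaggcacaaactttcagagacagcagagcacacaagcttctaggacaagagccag
IL6 promoter, chr7:22726950-22727249, plus strand: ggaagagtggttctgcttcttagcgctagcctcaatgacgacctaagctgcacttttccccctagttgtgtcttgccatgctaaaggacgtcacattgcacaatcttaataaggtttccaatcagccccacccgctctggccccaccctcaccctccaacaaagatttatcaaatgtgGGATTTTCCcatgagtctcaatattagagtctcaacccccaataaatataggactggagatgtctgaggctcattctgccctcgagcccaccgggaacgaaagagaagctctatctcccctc

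The CXCL10 window held NF-kB letters at 3 positions, 1 of which reads on both strands, and 1 ISRE match, 221 bases before the gene start. The CXCL8 window held 1 NF-kB position, 91 bases before the start and reading on both strands, and 1 AP-1 match 137 bases before it. The IL6 window held 1 NF-kB match, 72 bases before the start. Of 35116 RefSeq promoters of the same length, 20.1% held the NF-kB letters, 7.71% the AP-1 letters and 3.57% the ISRE letters. The STAT letters TTCNNNGAA and TTCNNNNGAA, present in 7.66% and 6.44% of promoters, matched in none of these 3 windows, and the CCL22 window matched no motif searched. Among the windows not shown, the NF-kB letters also matched in those of CSF2 and IL9 and in an IL13 window. The AP-1 letters matched in the IL9 window, and STAT letters in those of IL9 and CSF2. A match describes the sequence and is not evidence of binding.

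IL6, an inflammatory cytokine that signals through IL6R and IL6ST, was well above background on all arrays. Its signal was 1580.1, 1092 and 1415.5 in combination samples, 1500.4, 1247.5 and 1058 with sorafenib, 1316, 978 and 1340.6 with perifosine, and 1371, 1282 and 1364 in control samples. All groups overlapped, and the control samples had the smallest spread. The log2 change with sorafenib was 0.04 ± 0.13, with a 95% interval of -0.24 to 0.32 (limma, adjusted p = 0.909). With both perifosine replicate B and sorafenib replicate C left out, the lowest samples of their groups, it was 0.03 (adjusted p = 0.933).

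IL5 and IL13, the type 2 cytokines with a probe, lay at or under the background threshold. IL5, the growth factor of eosinophils, gave 248, 220.2 and 231 in combination samples, 215, 216.5 and 232 with sorafenib, 237, 229 and 249 with perifosine, and 212, 213 and 222 in control samples by its brighter probe. It was above background in 2 of 3 combination, 1 of 3 sorafenib, 3 of 3 perifosine and 0 of 3 control samples. Since no control sample was above background, the control level is only a bound, taken as the lowest corrected signal above background on each control array. Against it the mean was at least 1.13-fold higher with perifosine, a bound on the group means that leaves out the spread between samples. The difference between perifosine and control did not pass the test (limma, adjusted p = 0.99). A second IL5 probe was above background on 0 of 12 arrays.

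IL13, a growth factor of Hodgkin cells that acts through IL13RA1 and IL4R, was above background on 0 of 12 arrays. Its signal was 186, 195 and 206 in combination samples, 166, 179 and 169 with sorafenib, 164.5, 200.3 and 161 with perifosine, and 134, 201 and 176 in control samples. With all values under the threshold, no change of IL13 was measurable. Of the 10 listed signals, the 5 above background on all 12 arrays were CCL17, CCL22, CCL5, CXCL10 and IL6, so that these cells showed chemokine and IL6 transcripts while neither IL5 nor IL13 stood clearly above background.

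**Figure D3:**
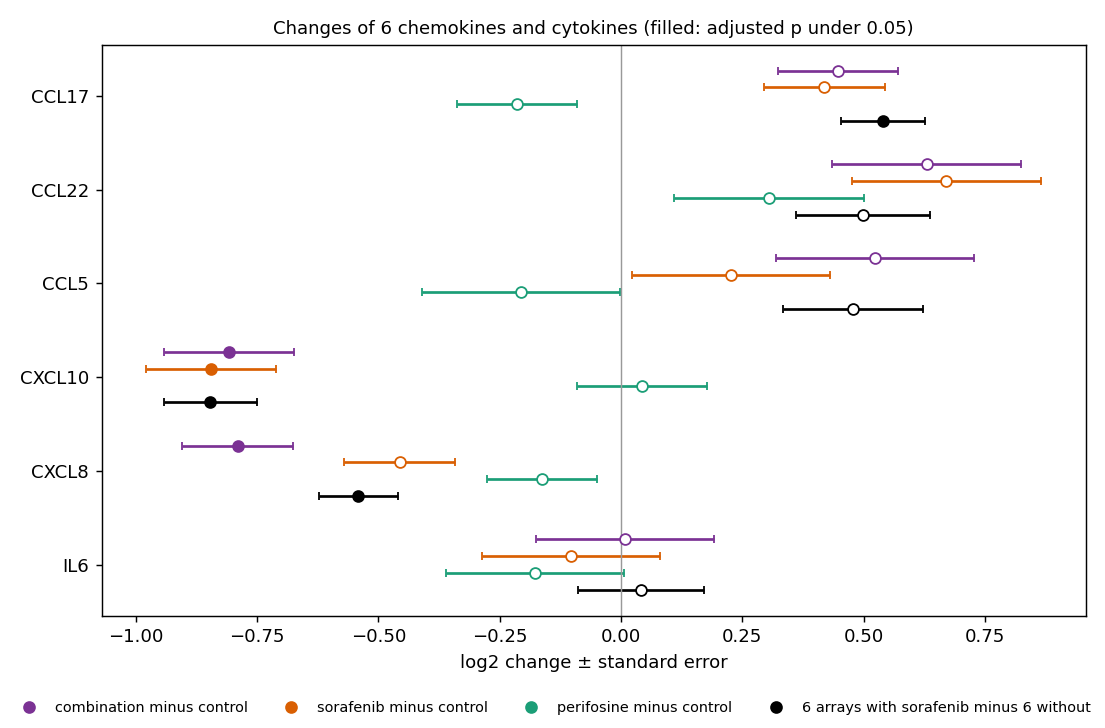
Log2 change ± standard error (x axis) of 6 genes for the combination, sorafenib and perifosine against control and for the 6 arrays with sorafenib minus the 6 without, with filled points under an adjusted p of 0.05 (limma). The sorafenib comparison of 6 against 6 is filled for CCL17 (0.54), CXCL10 (-0.85) and CXCL8 (-0.54), and no perifosine point is filled.

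For single groups against control, fewer members passed. Sorafenib against control called 1 of the 7 tested genes, CXCL10, where 0.82% of all genes passed, 0.549% higher and 0.271% lower. The combination against control called CXCL8 and CXCL10, where 0.623% of all genes passed. Arrays did not overlap for CCL17 and CCL22 (higher) and CXCL8 and CXCL10 (lower) in sorafenib against control, where the same was true of 11.4% of all genes upward and 10.3% downward. They did not overlap for CCL17, CCL22 and CCL5 (higher) and CXCL8 and CXCL10 (lower) in the combination against control, beside 11.1% and 9.37% of all genes. The log2 change of CCL17 against control was 0.45 ± 0.12 in the combination and 0.42 ± 0.12 with sorafenib (limma, adjusted p = 0.155 and 0.134).

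Perifosine alone called none of the 7 genes and none of all genes (0%). An unadjusted p under 0.05 was found for 553 genes, fewer than a share of 0.05 of the 13652 tested genes. The log2 changes of perifosine against control were -0.21 ± 0.12 for CCL17, 0.04 ± 0.13 for CXCL10 and -0.16 ± 0.11 for CXCL8 (limma, adjusted p = 0.99, 0.993 and 0.99). The 95% interval for CXCL10, -0.25 to 0.33, did not reach the -0.85 seen with sorafenib, and that for CXCL8 ran from -0.41 to 0.08. The arrays did not overlap for 1 member upward, IL5, and for 0 downward, beside 4.27% and 4.33% of all genes.

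Sorafenib added to perifosine gave calls in both directions. The combination against perifosine called CCL17 (0.66 ± 0.12, adjusted p = 0.0273), CXCL8 (-0.63 ± 0.11, 0.0238) and CXCL10 (-0.85 ± 0.13, 0.0121), where 0.689% of all genes passed (limma). The arrays did not overlap for CCL17 and CCL5 (higher) and CXCL8 and CXCL10 (lower), beside 9.84% and 8.29% of all genes. Without perifosine replicate C or combination replicate B or C, none of the 3 was called. With the replicate letter as a block in the fit, 1 of the 3 was called. Sorafenib against perifosine called CCL17 (0.63 ± 0.12, adjusted p = 0.0451) and CXCL10 (-0.89 ± 0.13, 0.0119), where 0.439% of genes passed, and the CCL17 call was lost in 11 of the 12 fits that each omitted 1 array. The arrays did not overlap for CCL17 (higher) and for CXCL8 and CXCL10 (lower), beside 7.97% and 7.33% of all genes. Neither was called there without perifosine replicate C, without sorafenib replicate A, or with perifosine replicate B and sorafenib replicate C both left out (adjusted p = 0.118 and 0.0987).

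Adding perifosine to sorafenib called none of the 7 genes and none of all genes (0%). An unadjusted p under 0.05 was found for 832 genes, more than a share of 0.05 of those tested. The combination minus sorafenib was 0.03 for CCL17 (95% interval -0.24 to 0.30) and 0.04 for CXCL10 (-0.25 to 0.33). For CXCL8 it was -0.33 ± 0.11 (95% interval -0.58 to -0.09, limma, adjusted p = 0.804). The 3 combination samples, 2 of which were under the background threshold, lay below the 3 sorafenib samples, as was the case for 5.6% of all genes. No member had non-overlapping arrays in the other direction, against 6.1% of all genes. Whether the sorafenib change differed with and without perifosine was tested as an interaction, which called none of the 7 genes and none of all genes (0%). The interaction had an unadjusted p under 0.05 for 1041 genes, also more than a share of 0.05. Its 95% intervals were -0.14 to 0.62 for CCL17, -0.42 to 0.41 for CXCL10 and -0.52 to 0.18 for CXCL8. The mean change with perifosine over both backgrounds called no gene either (0%). Unadjusted p-values under 0.05 were found for 459 genes, fewer than a share of 0.05 of those tested. Among the members, the unadjusted 95% interval of the mean change excluded 0 for CXCL8 (-0.249, interval -0.423 to -0.075) and IL5 (0.233, interval 0.048 to 0.417), both near the background threshold. The interval included 0 for the other tested members.

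Over the 12 arrays, the log2 signals of CXCL10 and CXCL8 correlated at 0.749, those of CCL17 and CCL22 at 0.592 and those of CCL17 and CXCL10 at -0.809. These values describe 12 arrays that share the 4 group means. The genes with the highest correlation with CCL17 were UBD, a ubiquitin-like protein induced by cytokines (0.934), C4BPB (0.922), a chain of the complement inhibitor C4b-binding protein, and KCNMB4 (0.919), a potassium channel subunit. The 6 arrays with sorafenib minus the 6 without gave log2 differences of 0.64, 1.12 and 0.64 for these genes, and a second C4BPB probe gave 0.245. Since the genes were chosen for their likeness on the same arrays, these differences are a description with no test, as are those of the genes most like CXCL10 and CXCL8.

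For CXCL10 the highest correlations were with SNORD14C, a small nucleolar RNA (0.963), DHX15, an RNA helicase of splicing (0.954), and ECE2, an endothelin-converting enzyme (0.942). Their log2 differences were -0.66, -0.21 and -0.68 in that order, and other probes gave -0.11 for DHX15 and -0.50 for ECE2. For CXCL8 they were with UTP11 (0.931), a nucleolar protein of ribosome assembly, HNRNPD (0.927), an RNA-binding protein of AU-rich elements, and TNFRSF10A (0.92), a TRAIL receptor. Their log2 differences were -0.28, -0.26 and -0.42 in that order, and another HNRNPD probe gave -0.375.

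Chemokines outside the list moved in both directions. Of 28 other chemokines, 16 were tested, and with sorafenib 2 were called higher and 1 lower, at a median log2 change of 0.04. Over all genes, 2.48% were called higher and 1.15% lower in this comparison. CX3CL1 (fractalkine), a membrane-tethered chemokine, averaged 2546 ± 110 in combination, 2022 ± 268 in sorafenib, 1615 ± 291 in perifosine and 1736 ± 166 in control samples (SD, n = 3 each). Its log2 change with sorafenib was 0.47 ± 0.11 (limma, adjusted p = 0.0325), and the call held in 5 of the 12 fits that each omitted 1 array. CCL3, a chemokine that draws monocytes and T cells, fell by 0.43 ± 0.09 (adjusted p = 0.0223, called in 8 of 12 such fits). CXCL12, the ligand of CXCR4, gave 0.33 ± 0.08 (adjusted p = 0.0401, called in 2 of 12), and its other probes gave 0.27 and 0.18 with adjusted p of 0.245 and 0.349. The CXCL12 call ended with perifosine replicate B and sorafenib replicate C both left out (adjusted p = 0.0875).

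The other ligands of CXCR3 were not called. CXCL11 was above background on all 12 arrays and had a log2 change with sorafenib of 0.17 (limma, adjusted p = 0.562), and CXCL9, above background on 4 arrays, had 0.18 (0.718). Both genes lie beside CXCL10 on chromosome 4, and of 7 tested genes within 250 kb of CXCL10 none was called, beside 3.63% of all genes (GRCh38.p14 gene order). On chromosome 16, CX3CL1 lies between CCL22 and CCL17, and the log2 changes of these neighbours were 0.50, 0.47 and 0.54 in that order. Of 13 tested genes within 250 kb of CCL17, CX3CL1 was called higher and ADGRG1, an adhesion receptor, lower (-0.63 ± 0.11, adjusted p = 0.00764). ADGRG1 was named after its values were seen, and its other probes gave -0.05 and -0.59 (adjusted p = 0.915 and 0.0212).

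**Figure D4:**
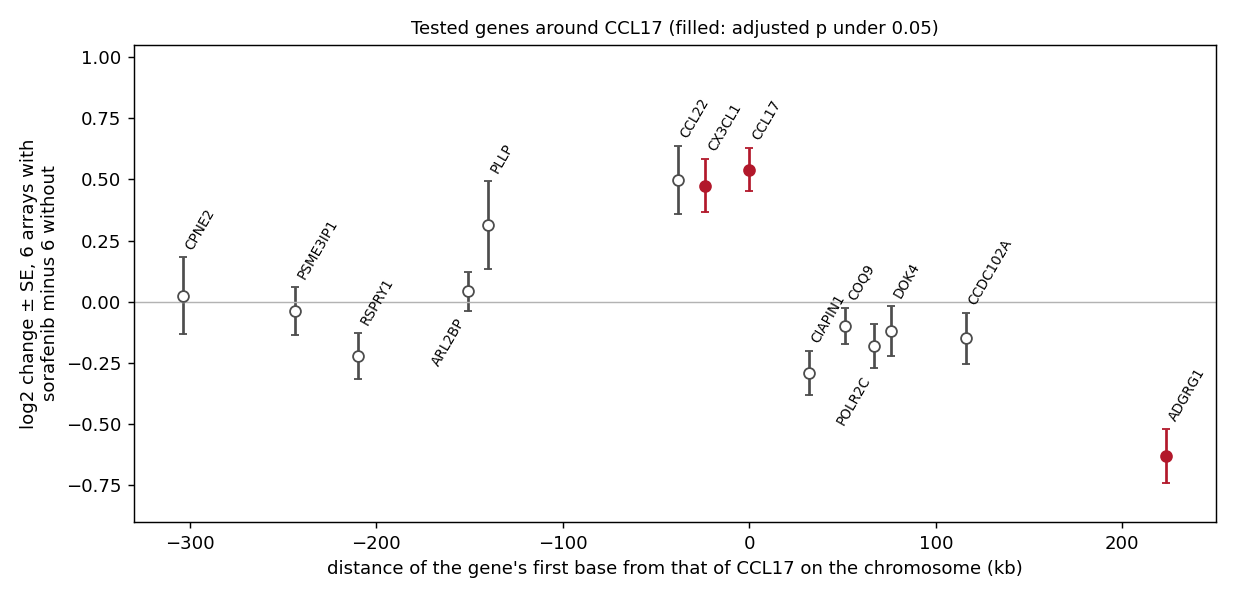
Log2 change ± SE (y axis, 6 arrays with sorafenib minus 6 without) of the tested genes within 250 kb of CCL17 against the distance of their first base from that of CCL17 in kb (x axis), with filled points under an adjusted p of 0.05 (limma). CCL22 (0.50), CX3CL1 (0.47) and CCL17 (0.54) lie side by side, and ADGRG1 (-0.63) is the called gene at the far right.

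Of 37 other cytokines, 22 were tested, and with sorafenib 3 were called higher and 0 lower, at a median of 0.16 beside -0.003 over all genes. The shares of all genes called were 2.48% higher and 1.15% lower. TNFSF13B (BAFF), a survival factor of B cells, averaged 1787 ± 144 in combination, 1536 ± 126 in sorafenib, 1000 ± 187 in perifosine and 953 ± 51.5 in control samples (SD, n = 3 each). Its log2 change with sorafenib was 0.85 ± 0.10 (limma, adjusted p = 0.000481), held in 12 of 12 fits that each omitted 1 array, and a second probe gave 0.81. LTA (lymphotoxin alpha) and LTB, its membrane partner, gave 0.41 ± 0.10 and 0.34 ± 0.08 (adjusted p = 0.0438 and 0.0422), but these calls held in 1 and 2 of the 12 such fits. A second LTB probe gave 0.17 (adjusted p = 0.437), and the LTB call ended with perifosine replicate B and sorafenib replicate C both left out (0.0632). IL4, the type 2 cytokine encoded beside IL13, was above background on all 12 arrays, with a change of 0.33 (adjusted p = 0.258).

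No receptor of the 10 signals was called in the sorafenib comparison, which 3.63% of all genes passed. Of 17 receptor genes, 11 were tested, at a median log2 change of 0.12. The brightest, IL13RA1, had 28790 ± 670 in combination, 27740 ± 2840 in sorafenib, 29650 ± 4770 in perifosine and 28590 ± 1720 in control samples (SD, n = 3 each). CCR4, the receptor of CCL17 and CCL22, was above background on all 12 arrays and had a log2 change of -0.17 (limma, adjusted p = 0.495).

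**Figure D5:**
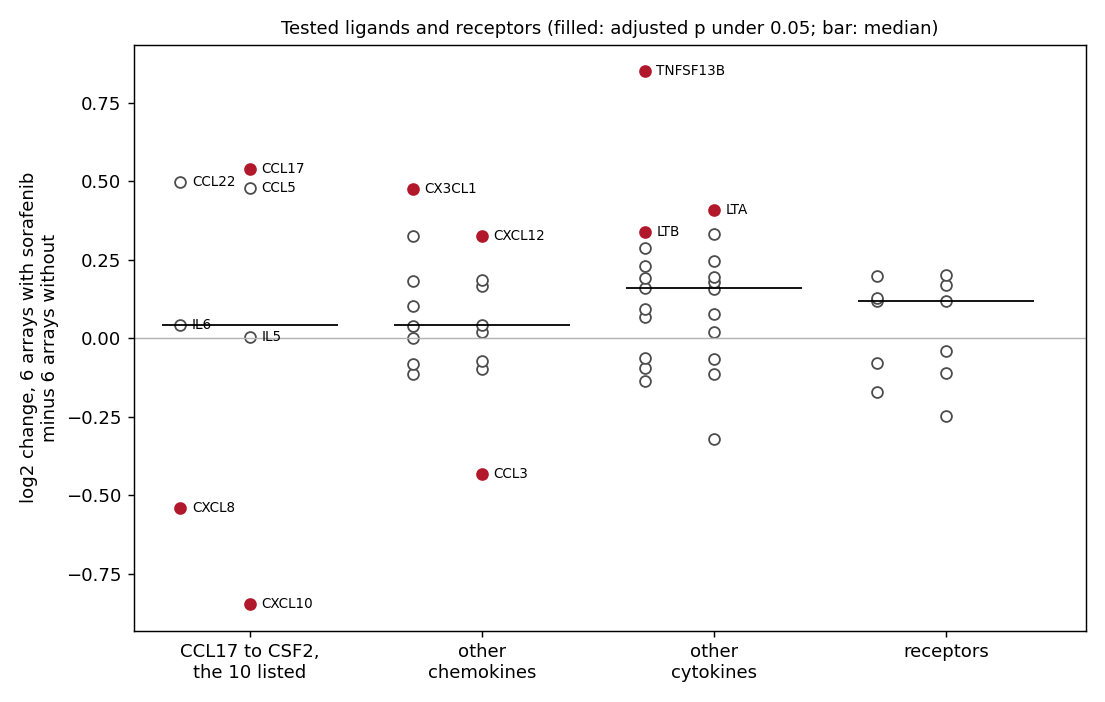
Log2 change (y axis, 6 arrays with sorafenib minus 6 without) of the tested genes in 4 lists, with filled points under an adjusted p of 0.05 (limma) and a bar at each list's median. CCL17 (0.54) and CXCL10 (-0.85) lie at opposite ends of the first list, TNFSF13B (0.85) is the highest point, and no receptor is filled.

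Among regulators of these genes, JUN, a subunit of AP-1, rose by 0.61 ± 0.09 with sorafenib (limma, adjusted p = 0.00187), a call that held in 12 of 12 fits without 1 array. FOSL1, another AP-1 subunit, gave -0.38 ± 0.10 (0.0442), and BCL3, an atypical IkB protein, -0.30 ± 0.08 (0.046), each called in 1 of 12 such fits, and the FOSL1 call also ended with perifosine replicate B and sorafenib replicate C both left out (0.0751). Of 23 regulators of type 2 cytokines 22 were tested, with 1 called higher and 1 lower. Of 24 NF-kB and interferon regulators 21 were tested, with 0 called higher and 1 lower. Beside these counts, 2.48% of all genes were called higher and 1.15% lower. Of the 12 tested Hodgkin cell line markers, TRAF1, an NF-kB target (0.53 ± 0.09, adjusted p = 0.0073), and FSCN1, an actin-bundling protein (0.43 ± 0.08, 0.0123), rose and CD274 (PD-L1) fell (-0.37 ± 0.08, 0.0203). The CD274 call held in 6 of 12 fits without 1 array. Against control samples, TRAF1, FSCN1 and CD274 were not called with sorafenib alone (limma, adjusted p = 0.154, 0.236 and 0.3) or in the combination (0.177, 0.2 and 0.192).

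Markers of other cell types were checked beside these results. Of 12 T and NK cell markers 8 were tested, and their summed signal was 15664 to 16599 in combination, 15889 to 16269 in sorafenib, 14770 to 16057 in perifosine and 13528 to 15455 in control samples. CD2, with a mean signal of 13980, made up most of this sum. CD2 and NKG7 were above background on all 12 arrays, LCK on 11, ZAP70 on 10 and CD3E on 7. CD3G and GNLY were above it on 5 arrays, CD3D on 3, CD4 on 2, CD8A and CD8B on 1 and CD5 on 0. One of these markers was called with sorafenib, NKG7, a granule protein of cytotoxic cells (0.58 ± 0.08, limma, adjusted p = 0.0022; 0.32 without background correction). No B cell, myeloid, eosinophil and mast cell, or fibroblast and endothelial marker was called in this comparison. Of 9 B cell markers with a probe, SPIB and MS4A1 were above background on all 12 arrays, and PAX5, CD22 and BLK on 0. Of 10 myeloid markers, 4 were above background on all 12 arrays, among them ITGAM, CD68 and CSF1R, and 2 on 0. Of 8 eosinophil and mast cell markers with a probe, 2 were above it on all 12 arrays, PRG2 and KIT, and 1 on 0. Of 10 fibroblast and endothelial markers, 1 was above it on all 12 arrays, PECAM1, and 3 on 0. All samples were of the line HDLM-2, grown without other cells, so these signals were read as transcripts of that line. Their source was not tested further. In bulk RNA, fewer producing cells and less RNA per cell cannot be told apart.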

How the data were processed

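Total RNA was extracted with Trizol and cleaned on RNeasy columns, and biotin-labelled cRNA was hybridised to Illumina arrays, per the labels' protocols. The deposited values are linear intensity values, 1 per probe and array, and the submitters' processing notes name BeadStudio. How they were normalized was not given in the sources used here. Sorted intensities differed between arrays by 0.0519% at the median and at most 1.09%, and the lowest was 109.7 on every array. A second deposited table has 24 columns that match no sample label and was not used here.

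The values were background-corrected with normexp (offset 16, no control probes), quantile-normalized and log2-transformed. A probe was kept if above the background threshold on at least 3 of 12 arrays, a rule set after the values were seen, since no detection p-values could be matched to samples. This kept 25399 probes. Of all probes, 28098 had 1 gene symbol, 13 several, and 20692 were not listed. Of the named probes, 28059 matched a RefSeq gene (GRCh38.p14). A gene was represented by its brightest passing probe, and 3685 of the 13652 genes had more than 1.

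A limma model (3.58.1, R 4.3.3) with 1 mean per group was fitted to all genes and 12 arrays, with 13.1 degrees of freedom in total and a residual SD of 0.18 at the median. P-values were adjusted over all tested genes by the Benjamini-Hochberg method within each of 9 contrasts, at a threshold of 0.05. The comparison of 6 arrays with sorafenib against 6 without is the mean of the sorafenib and combination groups minus that of the control and perifosine groups. Alternatives were no background correction, another offset, other filters and probe choices, array weights, other variance estimates, a replicate block and leaving out arrays.

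Every listed gene was named. From each of the 11 other lists, up to 3 genes called in any contrast were named, and for each called member the 3 genes of highest correlation. The members and lists were chosen with earlier results of these data known. The labels do not say what the letters A, B and C in the titles stand for. Over 18 pairs that share a letter, correlations of deviations ran from -0.24 to 0.204. This shows no clear pairing by letter but cannot exclude one.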

Additional observations from a re-analysis of the deposited data

How the results depend on the processing

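CCL17, CXCL8 and CXCL10 kept their direction and call with sorafenib, 6 arrays against 6, in all 22 alternatives. Of 1428 alternative log2 values of the 7 genes over all contrasts, 1359 kept direction and call, 52 lost a call, 17 gained one and 0 reversed. The main counts of listed genes called moved as follows. Sorafenib against control (1) had 2 with array weights or an intensity trend, 0 with the spread of the groups compared, and 0 to 1 without single arrays. The combination against control (2) had 3 without background correction or with an intensity trend, where CCL17 was added. It had 1 to 2 without single arrays. The combination against perifosine (3) and sorafenib against perifosine (2) each had 1 with no filter, 1 with every passing probe tested, 1 with the replicate block and 0 with the spread of the groups compared, and 0 to 3 and 0 to 2 without single arrays. With an intensity trend, the combination against perifosine had 4, where CCL5 was added. With perifosine replicate B and sorafenib replicate C both left out, chosen after seeing the data, sorafenib against perifosine had 0. Sorafenib, 6 arrays against 6 (3), had 5 without background correction, where CCL22 and CCL5 were added, 5 with an intensity trend, and 3 to 4 without single arrays. The replicate block changed no other count by over 1.5 times. Of 12 arrays, 3 correlated best with an array of their own letter, which shows no clear pairing but cannot exclude one. The block left 3 called in the 6 against 6 comparison. Over all genes, alternatives called 247 to 943 genes in this comparison (main 495), 23 to 251 for sorafenib against control (112), 34 to 208 for the combination against control (85), 21 to 289 for the combination against perifosine (94) and 9 to 138 for sorafenib against perifosine (60). The CXCL8 change, near the background threshold, was -0.54 with and -0.29 without background correction in the 6 against 6 comparison. The cause of the other moves was not tested.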

Other observations

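CSF2 had no listed probe, but P4HA2, a collagen prolyl hydroxylase subunit encoded within 250 kb of it on chromosome 5, rose by 0.76 ± 0.08 on the log2 scale in the 6 arrays with sorafenib (limma, adjusted p = 0.00023), and the call held in 12 of 12 fits that left out 1 array. P4HA2 was named after its values were seen, and its other probes gave 0.58 (adjusted p = 0.0229) and 0.06 (0.904). The other tested gene within 250 kb of CSF2, SLC22A4, had a change of -0.11 (adjusted p = 0.666).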
